A study of Arabidopsis thaliana with 12 samples.

Results

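Cycloheximide blocks the elongation step of protein synthesis on cytosolic ribosomes and is used in plants to separate transcripts that change without new protein from those that need it. The comparison described here is of Arabidopsis thaliana seedling shoots given cycloheximide alone, called CHX, with shoots given buffer alone, called mock. All groups carried the genotype clv3 epfl1 epfl2 epfl4 epfl6, so every value is a value in that mutant and no wild type was analysed here. CLV3 encodes a secreted peptide that limits the stem cell pool of the shoot meristem, and the EPFL genes encode secreted peptides read by ERECTA family receptors. Each of the 3 mock and 3 CHX libraries came from 10 seedlings at 3 days post germination, held in 1 ml of liquid medium. Cycloheximide was at 10 µM in the CHX group, and the mock group received an equal volume of treatment buffer. The remaining 6 libraries of the series, 3 with EPFL6 peptide and 3 with cycloheximide given 10 min before EPFL6, served for the estimate of spread and for a comparison side by side. The time from treatment to collection is not given in the sources used here. Nothing states whether the 10 seedlings of a library were grown apart from those of another, so the p-values measure the spread between these libraries.

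A gene was a member if its deposited value reached 10 in at least 3 of the 6 mock and CHX libraries, and 22869 of 26702 listed genes were. Of the members, 1034 passed with no mock library at 10 and 266 with no CHX library at 10, so those genes had to differ between the groups. The deposited values are reads divided by a size factor for each library and are called normalised read counts here. Every direction is relative to the median gene, since that scaling sets the median change close to 0.

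Blocking translation is known as background to change messenger RNA in several ways. Short-lived repressor proteins that hold a gene down run out, unstable messengers whose decay needs ongoing translation persist, and stalled ribosomes themselves call up stress signalling. The early defence genes of plants are a textbook class that accumulates under cycloheximide, and wounding, handling and microbial patterns can call up many of them.

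Cycloheximide changed most of the measured transcriptome. At an adjusted p under 0.05 (limma on log2(value + 1), Benjamini-Hochberg over all 22869 genes), 9361 genes were higher and 8824 lower in CHX, or 79.5% of those tested, with 40.9% higher and 38.6% lower. Those percentages are the background for each group of genes below. The median log2 change was 0.02, with quartiles of -0.70 and 1.07. With libraries scaled by their total reads alone the median gene was at -0.73, and 5530 genes were higher and 14343 lower, so the share of lower genes among those called went from 48.5% to 72.2%.

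Large rises outnumbered large falls. At 2-fold or more, 5873 genes (25.7%) were higher and 3835 (16.8%) lower, at 8-fold or more 2394 against 369, and at 32-fold or more 996 against 44. A rise of at least 128-fold was seen in 381 genes and a fall of that size in 1. With libraries scaled by total reads, 1813 genes rose and 789 fell by 8-fold or more. The CHX and mock libraries did not overlap in 18449 genes (80.7%), and 631 of these did not pass the test. The 95% interval of the log2 change lay within 0.5 of 0 in 3973 genes and within 0.25 in 846. The median standard error of a log2 change was 0.127 (n = 3 per group).

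Reads moved into fewer genes. The 100 genes with the most reads took 13.9%, 15.7% and 12.9% of reads in the mock libraries and 21.4%, 22.6% and 21.5% in the CHX libraries. The most abundant 1437, 1324 and 1510 genes made up 50% of reads in mock, against 748, 659 and 648 in CHX. Of 4 equal classes by mock level per kb of transcript, the highest took 75.7% to 77.3% of mock reads and 53.7% to 56.6% of CHX reads, with 1146 members higher, 3296 lower and a median log2 change of -0.46. The lowest class had a median of 0.98, with 1384 genes higher by 8-fold or more. These classes were cut on the mock values that enter the change, and low mock genes such as the 1034 above passed the filter only through CHX, so the rise in the lowest class is partly set by the filter. Genes with at least 1 read numbered 24848 to 24923 in mock and 26106 to 26271 in CHX, at depths of 47904113, 56793603 and 49519962 reads in mock and 89419200, 85720718 and 106641940 in CHX. With all libraries thinned to the smallest one, 8780 genes were higher and 8489 lower of 22003 tested.

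**Figure D1:**
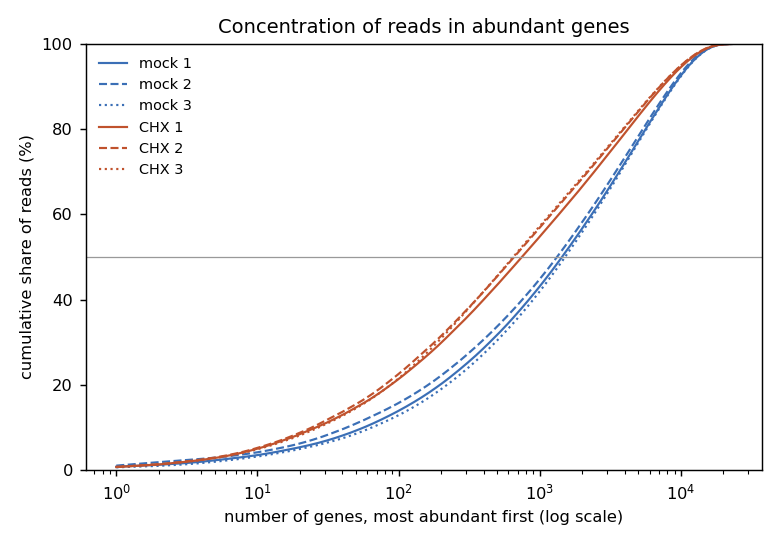
Cumulative percentage of the reads of tested genes (vertical axis) against the number of genes, most abundant first (horizontal axis, log scale), 1 line a library, mock in blue and CHX in orange. From about the 10 most abundant genes on, the 3 CHX lines run above the 3 mock lines, and they cross the grey line at 50% with 648 to 748 genes against 1324 to 1510.

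Markers of the labelled tissue were present. All 10 green tissue markers passed the filter, with a summed normalised read count of 845747 to 1872380 in mock and 555380 to 757911 in CHX. The lowest of those mock sums was in mock replicate 3 and the highest in mock replicate 2. The labels do not say that roots were removed, and all 14 root markers passed, summing to 13787 to 16916 in mock and 4532 to 4646 in CHX, with 9 of them lower and 3 higher. The 9 shoot meristem markers summed to 3585 to 3659 in mock and 7511 to 8338 in CHX, with 5 higher and 3 lower. CLV3, a member of that list and a mutated gene, held 618, 791 and 640 in mock and 4792, 4847 and 4486 in CHX. Most of the difference in that sum was thus its own. The 7 vascular markers summed to 15252 to 16303 in mock and 24075 to 25793 in CHX. Of these 2 were higher and 1 lower, with a median log2 change of 0.11. Of 5 epidermal markers 4 passed, and those 4 summed to 2907 to 3679 in mock and 1617 to 1820 in CHX. Of 7 seed storage genes 3 passed, and those 3 summed to 184 to 302 in mock and 2023 to 2623 in CHX. Only 1 of the 3 was higher, with a log2 change of 6.14, and 1 was lower, at -3.81. Of the 3, 1 passed with no CHX library at 10 and had to be lower. In bulk tissue fewer cells of a type and less RNA per cell cannot be told apart, and the part of these markers in the results below was not tested.

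**Figure D2:**
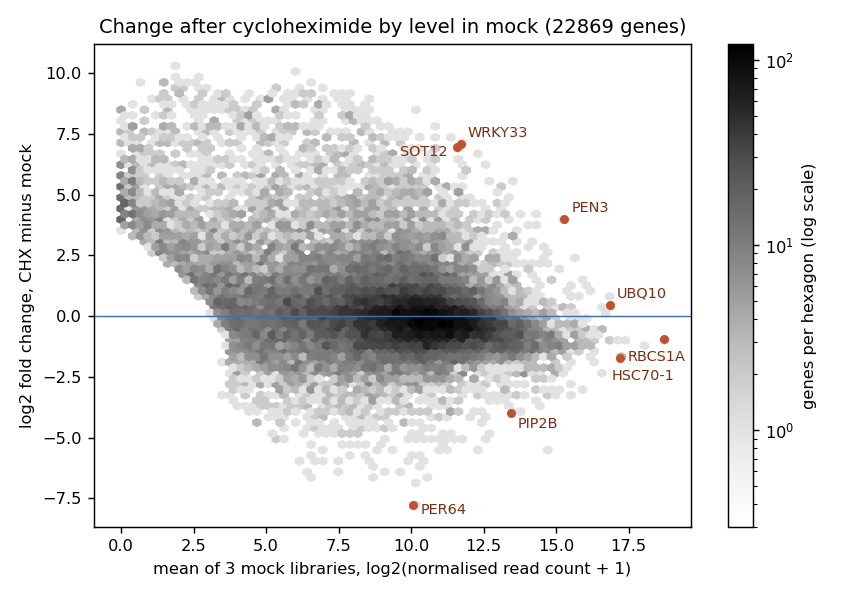
Log2 change, CHX minus mock (vertical axis), against the mean normalised read count of the 3 mock libraries on a log2(value + 1) scale (horizontal axis), with shading for the number of genes per hexagon and 8 genes labelled. Rises beyond 8-fold, 2394 in number, spread over all but the highest mock levels, and falls beyond 8-fold number 369; the slanting lower left edge follows from the filter.

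The 10 transcripts with the most reads after cycloheximide were those of 3 ABC transporters, a sulfotransferase, a glycosyltransferase, a cytochrome P450, WRKY33, a calmodulin-like protein and a pair of ATPase-type proteins. AT1G59870, which is PEN3, a plasma membrane ABC transporter that exports defence compounds, held 39776, 38838 and 40364 normalised read counts in mock and 585023, 645637 and 673359 in CHX. Its share of reads went from 0.0774% to 0.734% and its log2 change was 4.00 ± 0.12 (SE, limma adjusted p = 2.2e-10). ABCC3, a vacuolar pump for glutathione conjugates, held 13252, 7476 and 15608 in mock and 505244, 561053 and 526404 in CHX, a log2 rise of 5.52 ± 0.25. In both pumps every CHX library lay far above every mock library.

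WRKY33, a transcription factor of the response to fungi, held 3216, 2142 and 4643 normalised read counts in mock and 391128, 437248 and 447665 in CHX, a log2 rise of 7.06 ± 0.29. SOT12, a sulfotransferase that acts on brassinosteroids and salicylate, held 3551, 2219 and 3461 against 366647, 390904 and 355517, a log2 rise of 6.94 ± 0.18. CYP81D8, a cytochrome P450 of the xenobiotic response, rose by 7.76 ± 0.22 on the log2 scale. Mock replicate 2 was the lowest mock library for ABCC3, WRKY33, SOT12 and CYP81D8, yet the spread among mock libraries was small beside the distance to CHX. AT2G18193, a P-loop nucleoside triphosphatase, held 4383, 1237 and 2844 in mock and 384400, 413829 and 370093 in CHX, a rise of 7.29 ± 0.40. BCS1, an AAA protein of mitochondria, rose by 8.43, UGT74E2, a glycosyltransferase of indole butyric acid, by 6.24, ABCB4, an auxin transporter, by 6.74 and TCH3, a calmodulin-like protein, by 5.33. WRKY33, ABCB4 and TCH3 overlap a gene on the other strand, and the strand setting of the counting is not given in the sources used here, so reads of such pairs may be shared.

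Of the 10 most abundant transcripts of mock shoots 8 fell and 2 rose. The risers were NIA2, nitrate reductase, at 0.68 and UBQ10, a polyubiquitin, at 0.46 on the log2 scale, and both were below 0 by total reads, at -0.071 and -0.29. The other 8 included 4 of photosynthesis, and of 27 light harvesting and carbon fixation genes 17 fell and 0 rose, with a median log2 change of -0.93. In the libraries with EPFL6 only 7 of the 27 fell and 0 rose after cycloheximide, with a median of -0.53. The difference between the 2 contrasts passed the interaction test in 0 of them. RBCS1A, the small subunit of Rubisco, held 407682, 554641 and 326108 normalised read counts in mock and 177522, 262530 and 222928 in CHX, a log2 change of -0.94 ± 0.27 (limma adjusted p = 0.0082). The groups did not overlap, but the 3 mock values were themselves spread widely, with replicate 2 highest, as for the green markers as a whole. RCA, Rubisco activase, held 187192, 231257 and 83353 in mock against 70116, 94405 and 79595 in CHX. These overlapped, and its adjusted p of 0.044 rose to between 0.052 and 0.17 in the 6-library fit, under 2 other scalings of the reads and without any of 5 single libraries. The log2 change was -1.23 in CAB1, a chlorophyll-binding protein with a neighbour on the other strand, -0.92 in PSBO1, of the oxygen-evolving complex, -1.07 in AT5G60390, a translation elongation factor, -1.77 in ATMS1, a methionine synthase, -1.72 in HSC70-1, a constitutive chaperone, and -1.72 in PYK10, the main beta-glucosidase of endoplasmic reticulum bodies.

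Most transcripts of ribosomal proteins and of the translation factor lists fell. Of 320 tested genes annotated as ribosomal proteins, of 328 listed, 287 fell and 21 rose with a median log2 change of -1.10, 180 fell by 2-fold or more, and their share of reads went from 6.18% to 6.77% in mock to 1.72% to 2.13% in CHX. Of 13 members of the cap-binding complex and poly(A)-binding proteins 8 fell and 1 rose, with a median of -0.67. Of 10 subunits of initiation factor eIF3, which assembles the small ribosomal subunit for scanning, 9 fell and 0 rose, with a median of -0.49. Of 11 elongation and release factors 10 fell and 1 rose, with a median of -0.79. Their medians were lower still with libraries scaled by total reads. Wider groupings by product description were more mixed, with 18 of 28 initiation factors lower and 6 higher at a median of -0.24, and 26 of 55 tRNA ligases lower and 16 higher at a median of -0.19.

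FBR12, an eIF5A factor that helps ribosomes pass difficult stretches, held 43734, 43572 and 45155 normalised read counts in mock and 17217, 13744 and 14911 in CHX, a log2 change of -1.54 ± 0.09 (limma adjusted p = 4.8e-08). EIF4G, the scaffold of the cap-binding complex, held 9731, 9736 and 10297 against 4957, 4673 and 4714, a log2 change of -1.05 ± 0.06. The groups lay well apart in both genes. The members that rose were NCBP, an unusual cap-binding protein, by 0.57 and ERF1-1, which releases the finished protein at stop codons, by 0.55 on the log2 scale. Both stood at -0.19 and -0.20 under scaling by total reads.

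Transcripts of the proteasome, which degrades ubiquitin-tagged proteins, also fell as a group. Of 34 subunits 30 fell and 2 rose, with a median log2 change of -0.73, and 10 fell by 2-fold or more. RPT3, an ATPase of the proteasome cap, held 14267, 10611 and 11956 normalised read counts in mock and 5375, 4634 and 4736 in CHX, a log2 change of -1.31 ± 0.14 (limma adjusted p = 6.0e-06). PAF2, a subunit of the core, fell by 1.51. The risers were RPN1B at 0.28 and RPN5B at 0.57, which stood at -0.48 and -0.18 under scaling by total reads. The 24 autophagy genes split into 10 higher and 10 lower with a median of 0.01, or -0.74 by total reads, and ATG8E, which coats autophagosomes, had the largest rise at 3.06 ± 0.15.

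Messenger decay genes showed a few very large rises among little change. Of 13 decapping and deadenylation genes 4 rose and 2 fell with a median of 0.08, or -0.67 by total reads. CAF1a, a deadenylase that shortens poly(A) tails and is known as a stress gene, held 642, 622 and 1158 normalised read counts in mock and 63921, 62484 and 82808 in CHX, a log2 rise of 6.48 ± 0.25 (limma adjusted p = 1.2e-09). CAF1b, its close relative, held 360, 290 and 503 against 13176, 10794 and 18722, a rise of 5.20 ± 0.26. No other member of that list rose by 2-fold. Among 9 tested tandem CCCH zinc finger genes 4 rose and 2 fell with a median of 0.49, or -0.26 by total reads. SZF1, a salt-inducible member, held 1646, 1179 and 2255 in mock and 249971, 282558 and 286946 in CHX, a log2 rise of 7.38 ± 0.21, and CZF1 rose by 5.24. Related animal proteins are known to bind AU-rich messengers and speed their decay. Of 9 genes of ribosome rescue, nonsense-mediated decay and the exosome 5 rose and 4 fell with a median of 0.44, or -0.32 by total reads. RRP41, an exosome subunit with a neighbour on the other strand, rose by 1.67 and UPF3, a nonsense-mediated decay factor, by 0.98 ± 0.07.

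**Figure D3:**
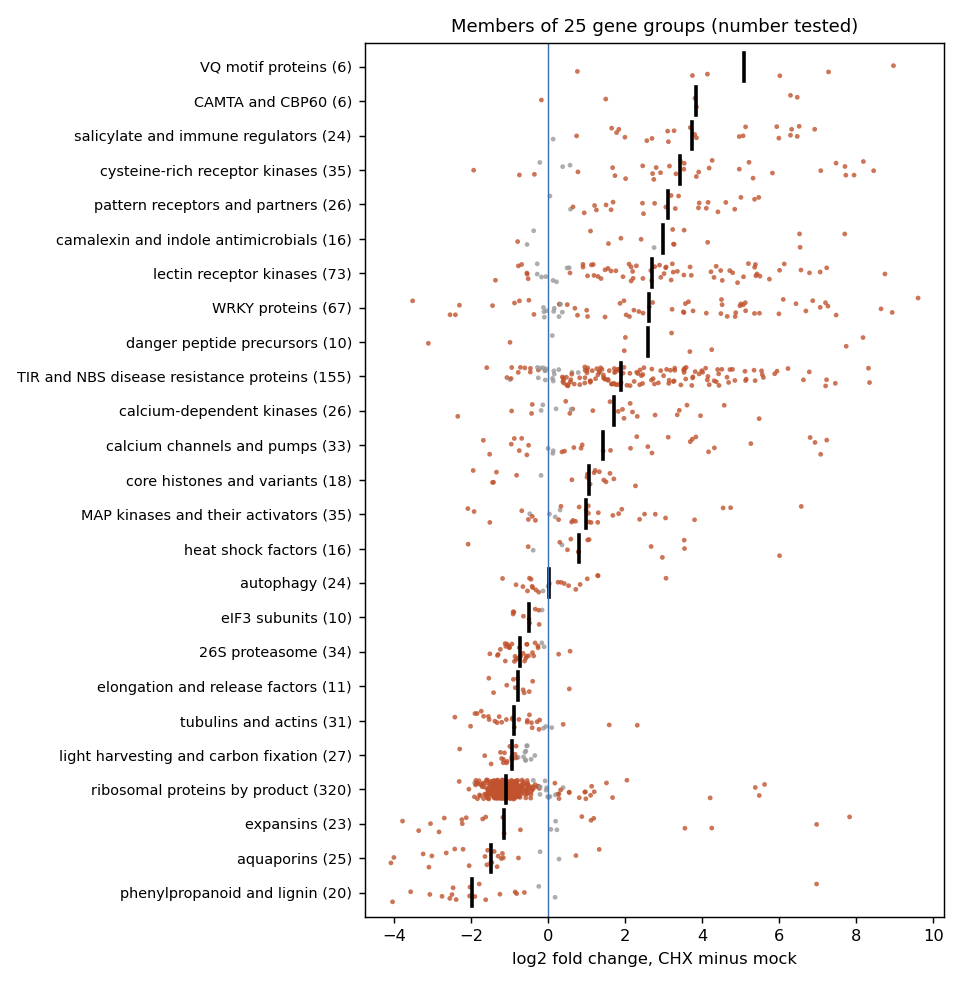
Log2 change, CHX minus mock (horizontal axis), of each tested member of 25 gene groups, 1 point a gene, orange where the adjusted p was under 0.05 and grey otherwise, with a black bar at the group's median and the number tested in brackets. Medians run from 5.08 in the VQ proteins to -1.96 in the lignin genes, and the ribosomal proteins sit close around -1.10.

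Receptors that sense microbes rose almost without exception. Of 26 tested pattern receptors and their partners 24 rose and 0 fell, with a median log2 change of 3.12, against 40.9% higher among all genes. PEPR1, the receptor for Pep danger peptides, held 1736, 1306 and 2060 normalised read counts in mock and 59741, 66510 and 102218 in CHX, a log2 rise of 5.47 ± 0.22 (limma adjusted p = 2.0e-09). LYK5, which binds chitin, rose by 5.36 ± 0.22. Of 155 tested TIR and NBS resistance proteins, the receptors inside the cell, 129 rose and 10 fell, with a median of 1.89. Cysteine-rich receptor kinases had 29 of 35 higher and 3 lower with a median of 3.43, lectin receptor kinases 59 of 73 higher and 6 lower with 2.69, and wall-associated kinases 12 of 16 higher and 2 lower with 2.12. With no mock library at 10, 10 of the 155, 3 of the 35, 2 of the 73 and 1 of the 16 had to be higher. The 167 leucine-rich repeat kinases did not share that lean, with 76 higher, 62 lower and a median of 0.14, which went to -0.62 by total reads. Many of these families hold near-identical copies, and reads that could come from several copies may be split or lost in the counting.

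Genes of the Pep danger peptides read by PEPR1 were among the large rises, with 1 exception. PROPEP3 held 57.2, 32.5 and 96.8 normalised read counts in mock and 14816, 15021 and 20571 in CHX, a log2 rise of 8.17 ± 0.31 (limma adjusted p = 1.3e-09). PROPEP2 held 19.1, 17.6 and 30.6 against 4611, 3684 and 6734, a rise of 7.74 ± 0.28. Every CHX library was more than 100 times above every mock library in both genes. PROPEP1 rose by 4.25 and PROPEP4 by 3.68, while PROPEP5 was at -3.11 on the log2 scale. Of the 10 peptide precursors on the list 7 rose and 2 fell, with a median of 2.61, and the other faller was RALF1, a growth-restraining peptide, at -0.99 ± 0.10. Of the 10, 1 passed the filter with no CHX library at 10, so it had to be lower. That member was not RALF1, which held 695, 568 and 611 in CHX.

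Calcium signalling genes were mostly higher. Of 33 calcium channels and pumps 22 rose and 8 fell, with a median log2 change of 1.43, and of 26 tested calcium-dependent kinases of 29 listed 18 rose and 4 fell, with 1.72. With no mock library at 10, 2 of the 33, GLR2.8 and GLR2.9, and 1 of the 26 had to be higher. By total reads 17 of the channels and pumps rose and 13 fell, and 15 of the kinases rose and 9 fell. CPK32, one of these kinases, held 1895, 1704 and 2075 normalised read counts in mock and 71162, 89945 and 92772 in CHX, a log2 rise of 5.48 ± 0.11 (limma adjusted p = 1.7e-11). Of 18 calmodulins and calmodulin-like genes 12 rose and 5 fell, with a median of 1.67, and by total reads 9 rose and 6 fell. CML37, a calmodulin-like protein of wounding and drought responses, held 45.5, 32.5 and 105 against 23634, 27834 and 42020, a rise of 9.11 ± 0.39. The canonical CAM6 and CAM7 went the other way, at -1.35 and -1.33. GLR2.8 and GLR2.9, glutamate receptor-like channels, were barely detected in mock, with GLR2.9 at 3.18, 2.78 and 1.02, and rose by 7.23 and 7.07. CNGC4, a cyclic nucleotide-gated channel, fell by 1.68.

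Kinases and phosphatases of the MAP kinase cascade, which relays receptor signals, moved in both directions with more of them higher. Of 35 MAP kinases and their activators 24 rose and 7 fell, with a median of 0.99, and by total reads 17 rose and 13 fell. MPK11, a close relative of the immune kinase MPK4, held 46.6, 24.1 and 37.7 normalised read counts in mock and 3307, 3201 and 3749 in CHX, a log2 rise of 6.57 ± 0.42 (limma adjusted p = 7.8e-08). MPK7 stood at -1.92 and NP3, a MAP kinase kinase kinase of cytokinesis, at -1.51. PP2C5 and AT2G30020, protein phosphatases of the 2C class that switch MAP kinases off, rose by 8.61 ± 0.26 and 5.14 ± 0.19, while MKP2, of another phosphatase class, fell by 1.39.

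Genes of salicylate, the hormone of resistance to biotrophs, formed the list with the highest share of risers apart from the VQ proteins. Of 24 tested members 23 rose and 0 fell, with a median log2 change of 3.75. Of the 24, 2 passed the filter with no mock library at 10, so these had to be higher. SARD1 and CBP60G, transcription factors that switch on salicylate synthesis, held 144, 130 and 215 and 497, 419 and 661 normalised read counts in mock. In CHX they held 11717, 13009 and 18594 and 31606, 38421 and 54825, log2 rises of 6.47 ± 0.35 and 6.29 ± 0.25. PBS3, an enzyme of salicylate synthesis, held 101, 29.7 and 99.9 against 7567, 4707 and 15650, a rise of 6.92 ± 0.78 (limma adjusted p = 8.7e-06). ALD1, which makes pipecolic acid, held 5.3, 8.35 and 5.1 against 600, 420 and 1086. CHX replicate 3 was the highest library for all 4 of these genes. All 6 VQ proteins, which bind WRKY factors, rose, with a median of 5.08, AT4G37710 by 8.96 and SIB1 by 7.28.

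Genes of indole antimicrobial compounds were mostly higher. Of 16 tested genes of camalexin and indole glucosinolates 12 rose and 1 fell, with a median log2 change of 2.99. IGMT2, a methyltransferase of indole glucosinolates, held 502, 451 and 793 normalised read counts in mock and 104206, 120566 and 128861 in CHX, a log2 rise of 7.70 ± 0.18 (limma adjusted p = 4.8e-11). CYP81F2, which hydroxylates the same compounds, rose by 6.54. CYP79B3, which makes the shared precursor, was at 4435, 4059 and 4588 in mock and 3074, 1409 and 3696 in CHX, and its adjusted p of 0.041 did not hold under several of the alternative settings. Of 50 antioxidant and detoxification genes 26 rose and 10 fell with a median of 0.58, or -0.17 by total reads. AOX1D, an alternative oxidase of mitochondria, held 230, 80.7 and 314 in mock and 88484, 63692 and 96654 in CHX, a rise of 8.82 ± 0.49.

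Transcription factor families differed in how widely they moved. Of 81 tested NAC genes of 90 listed 48 rose and 15 fell, with a median log2 change of 0.91, and by total reads 35 rose and 30 fell. Of the 81, 6 passed the filter with no mock library at 10, so these had to be higher. AT3G12910, annotated as a NAC gene and likewise with no mock library at 10, held 1.06, 6.49 and 8.15 normalised read counts in mock. In CHX it held 3683, 5837 and 5158, a log2 rise of 9.85 ± 0.45. NAC090 had 0 reads in every mock library and 145, 135 and 415 normalised read counts in CHX, at least 232-fold higher when mock is set to 3 reads over the group. NAC1, which acts in lateral root formation, was at -2.68, and NAC6, a regulator of leaf ageing, at -2.38. Of 16 tested heat shock factors 12 rose and 2 fell, with a median of 0.79, and by total reads 7 rose and 4 fell. HSFA8 and HSFB2A rose by 3.54 and 3.53, and HSFA7A fell by 2.07.

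Most of the 8 largest rises were of genes with almost no mock reads. The largest was that of AT2G36440, an uncharacterised protein, at 10.29 ± 0.64 on the log2 scale, from 1, 0 and 7 reads in mock. AT5G21960, with an ERF-type DNA-binding domain, rose by 9.87 from 2, 0 and 5 reads, and AT1G06137, uncharacterised, by 9.69 from 0, 0 and 9 reads. AT3G12910 rose by 9.85 from 1, 7 and 8 reads, and FAR8, a fatty acid reductase, by 9.66 from 3, 1 and 1 reads. At such counts a log2 change depends on the pseudocount of 1. AT2G36440, AT5G21960, AT1G06137, AT3G12910 and FAR8 had no mock library at 10. They passed the filter only through CHX and had to be higher. The others of the 8 were BHLH92 at 10.06, RRTF1 at 9.67 and WRKY30 at 9.60.

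The 8 largest falls were led by PER64, a peroxidase and one of the root markers, which held 1219, 883 and 1116 normalised read counts in mock and 6.44, 2.03 and 4.21 in CHX, a log2 change of -7.76 ± 0.42 (limma adjusted p = 1.8e-08). PRP1, a proline-rich protein, was at -6.85. AT3G55230, a dirigent-like protein, held 1653, 1214 and 1534 in mock and 15.6, 13.2 and 15.2 in CHX, a log2 change of -6.54 ± 0.16. AT1G44970, a peroxidase, was at -6.51, UCC1, an uclacyanin, at -6.47, EDA4, a lipid transfer protein, at -6.41, MYB27, a MYB domain protein, at -6.37 and PUP4, a purine permease, at -6.21. The groups did not overlap in any of these 8, as the rule that picked them required. PER64, AT1G44970, UCC1, MYB27 and PUP4 had no CHX library at 10, so they passed only through mock and had to be lower. The part of the root markers, lower in CHX as given above, was not tested.

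Promoters of the genes that rose most held the W-box, the core site of WRKY factors, more often than promoters at large. The window was 250 bases before the RefSeq start on TAIR10.1, searched on both strands for TTGACC or TTGACT. A W-box was in 1010 of 2195 promoters (46.0%) of genes that rose by 8-fold or more, in 28.9% of 21639 promoters of tested genes, in 28.4% of all 27444 coding promoters and in 237 of 985 (24.1%) of genes that fell by 4-fold or more. Within 100 bases of the start the values were 24.3%, 13.6%, 12.8% and 8.73%. Among tested genes with 0, 1, 2 and 3 or more W-boxes, 7.70%, 13.5%, 22.8% and 39.1% rose by 8-fold or more, and the median log2 changes were -0.09, 0.20, 0.79 and 1.95. The core of the CAMTA site, CGCGTT, was in 6.15% of promoters of 8-fold risers, 2.85% of tested and 1.12% of 4-fold fallers. Matches were counted on each strand, so a run such as AACGCGTT, which reads as CGCGTT on both strands, counts as 2. With 0, 1 and 2 such matches, 9.80% of 21023, 19.6% of 540 and 39.4% of 66 genes rose by 8-fold or more. With 3 or more matches 3 of 10 genes did, with a median log2 change of 0.99 against 2.09 for 2 matches.

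Below are 4 promoters of genes described here, chosen after their values were seen because they hold many of these sites. W-boxes and CGCGTT are in capitals, the strand is that of the gene, and each run ends at the base before the start. They are PROPEP3 at chr5:25939312-25939561 (plus strand), CYP81D8 at chr4:17571744-17571993 (minus strand), EXLA3 at chr3:16892452-16892701 (plus strand) and EXPA12 at chr3:5190304-5190553 (plus strand).
PROPEP3: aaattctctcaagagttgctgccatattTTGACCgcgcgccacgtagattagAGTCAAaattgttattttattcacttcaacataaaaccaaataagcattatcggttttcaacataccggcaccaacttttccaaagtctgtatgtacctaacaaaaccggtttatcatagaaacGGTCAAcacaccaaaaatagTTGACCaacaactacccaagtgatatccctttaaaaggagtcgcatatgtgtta
CYP81D8: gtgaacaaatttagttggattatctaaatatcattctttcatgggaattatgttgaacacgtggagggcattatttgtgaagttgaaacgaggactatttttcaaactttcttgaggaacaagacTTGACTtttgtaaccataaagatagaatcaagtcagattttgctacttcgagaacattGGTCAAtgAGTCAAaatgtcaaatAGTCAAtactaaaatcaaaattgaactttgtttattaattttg
EXLA3: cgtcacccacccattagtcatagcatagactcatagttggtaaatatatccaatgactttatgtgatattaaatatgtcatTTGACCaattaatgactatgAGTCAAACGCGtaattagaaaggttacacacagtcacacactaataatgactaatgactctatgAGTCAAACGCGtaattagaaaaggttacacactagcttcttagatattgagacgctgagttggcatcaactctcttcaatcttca
EXPA12: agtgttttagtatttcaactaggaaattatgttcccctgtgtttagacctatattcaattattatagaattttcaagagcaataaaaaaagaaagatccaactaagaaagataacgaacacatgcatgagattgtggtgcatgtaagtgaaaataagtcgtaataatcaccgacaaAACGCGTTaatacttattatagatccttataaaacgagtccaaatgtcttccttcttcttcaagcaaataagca
PROPEP3 and CYP81D8 each held 4 W-boxes. EXLA3 held 3 W-boxes and 2 CGCGTT cores, each core sharing a base with a W-box, and the run in EXPA12 reads as CGCGTT on either strand. EXLA3 and EXPA12 encode wall-loosening proteins and rose by 6.97 ± 0.28 and 7.82 ± 0.18 on the log2 scale. CML37 rose by 9.11 with 0 sites of either kind in its window, and the part of these sites in the rises was not tested.

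Promoters of the genes of translation and the proteasome held another element, site II, spelled TGGGCC or TGGGCT. It was in 19 of 34 proteasome promoters (55.9%), 179 of 320 ribosomal protein promoters (55.9%) and 14 of 34 translation factor promoters (41.2%), against 21.2% of tested genes. Among 8-fold risers it was in 11.2% and among 4-fold fallers in 10.6%. Of tested genes with 0, 1, 2 and 3 or more sites, 11.4%, 8.45%, 3.61% and 3.75% rose by 8-fold or more. RPT3 at chr5:23568802-23569051 (plus strand) and FBR12 at chr1:9205550-9205799 (plus strand) are shown with site II in capitals.
RPT3: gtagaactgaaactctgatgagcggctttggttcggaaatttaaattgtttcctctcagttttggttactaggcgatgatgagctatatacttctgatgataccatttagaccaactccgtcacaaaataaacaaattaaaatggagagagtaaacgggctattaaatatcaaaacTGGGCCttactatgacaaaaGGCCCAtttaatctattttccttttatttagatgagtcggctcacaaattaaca
FBR12: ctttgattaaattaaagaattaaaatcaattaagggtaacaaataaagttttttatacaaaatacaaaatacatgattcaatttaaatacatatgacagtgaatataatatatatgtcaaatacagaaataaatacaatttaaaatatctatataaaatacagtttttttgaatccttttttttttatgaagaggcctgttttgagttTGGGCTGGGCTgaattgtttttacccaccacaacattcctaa
RPT3 held 2 sites on opposite strands and FBR12 held 2 that overlap by a base. UPF3 and RPN1B, which rose, each held 4. The telo box AAACCCTA was in 14.4% of ribosomal protein promoters and 3.63% of tested ones. The heat element GAANNTTC was in 15.0% of promoters of 8-fold risers against 9.45% of tested, the G-box CACGTG in 7.56% against 7.22%, the GCC box GCCGCC in 2.32% against 1.89% and the ABRE-like ACGTGTC, which can share bases with the G-box, in 4.24% against 4.08%.

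**Figure D4:**
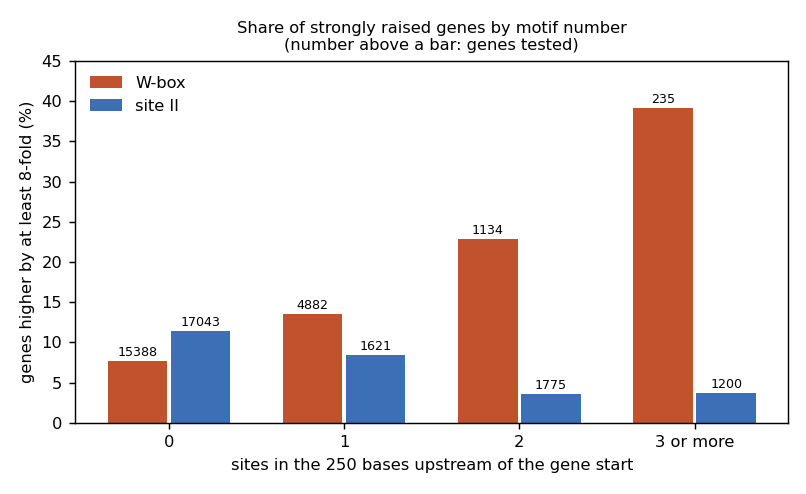
Percentage of tested genes that rose by 8-fold or more (vertical axis, bars from 0) by the number of W-box or site II matches in the 250 bases before the gene start (horizontal axis), with the number of genes above each bar. A site II run that matches on both strands counts as 2. The percentage goes from 7.70% to 39.1% across W-box numbers and from 11.4% to 3.75% across site II numbers.

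Hormone pathways other than salicylate had mixed members. Of 36 tested abscisic acid genes 17 rose and 11 fell with a median log2 change of 0.29, or -0.46 by total reads. CYP707A3 and CYP707A1, which break abscisic acid down, rose by 5.89 ± 0.15 and 4.46 ± 0.37, while CYP707A2 fell by 1.54. Of 19 ethylene genes 4 rose and 10 fell, with a median of -0.32. AT1G62380, ACC oxidase 2 of ethylene synthesis, held 84403, 105153 and 101053 normalised read counts in mock and 23549, 15268 and 22202 in CHX, a log2 change of -2.27 ± 0.15 (limma adjusted p = 1.1e-07). ERF1, an ethylene response factor, rose by 6.40 ± 0.60.

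Of 16 gibberellin genes 10 fell and 3 rose, with a median of -0.63. GASA6, a gibberellin-regulated peptide, fell by 3.43, and GID1B, a gibberellin receptor, rose by 1.72. The 11 tested strigolactone and karrikin genes split into 4 higher and 4 lower. CCD8, which cleaves carotenoids to make strigolactone, rose from 40.3, 48.2 and 42.8 to 952, 962 and 991, a log2 rise of 4.44 ± 0.14, and KAI2, the karrikin receptor, fell by 2.15 ± 0.09.

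Light signalling genes were more often lower than higher. Of 27 photoreceptors and light regulators 17 fell and 4 rose, with a median of -0.50. PHYA, the far-red photoreceptor of young seedlings, held 7435, 9322 and 7687 normalised read counts in mock and 1928, 1583 and 1628 in CHX, a log2 change of -2.25 ± 0.12 (limma adjusted p = 1.8e-08). HB-2, a shade response gene, rose by 1.76. Of 23 chlorophyll synthesis genes 8 fell and 4 rose, a share of fallers below that of all genes, and HEMA2, a second gene for the glutamyl-tRNA reductase of the first step, rose by 5.09 ± 0.14. Of 22 tested flavonoid genes 9 fell and 6 rose, with a median of -0.03. TT4, chalcone synthase at the entry to flavonoids, held 13335, 9350 and 10825 against 920, 931 and 1598, a log2 change of -3.31 ± 0.20, while UF3GT, an anthocyanin glycosyltransferase, rose by 4.03 ± 0.90 and LDOX, of anthocyanidin synthesis, by 2.19 ± 0.72, a call lost by total reads and without mock replicate 2.

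Genes of lignin fell with a single riser. Of 20 phenylpropanoid and lignin genes 17 fell and 1 rose, with a median log2 change of -1.96, against 38.6% lower among all genes. ATCAD4, a dehydrogenase of the last step to lignin units, held 6553, 4999 and 5358 normalised read counts in mock and 337, 334 and 352 in CHX, a log2 change of -4.03 ± 0.10 (limma adjusted p = 4.6e-11). PAL4, of the entry step, fell by 3.56 ± 0.18. AT1G80820, a cinnamoyl-CoA reductase known from defence, was the riser, from 433, 391 and 674 to 56276, 52928 and 75582, a log2 rise of 6.97 ± 0.29.

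Water channels and the cytoskeleton fell. Of 25 tested aquaporins of 27 listed 21 fell and 2 rose, with a median of -1.49, and 20 fell by 2-fold or more. PIP2B, a plasma membrane water channel, held 10821, 12098 and 10089 normalised read counts in mock and 656, 654 and 750 in CHX, a log2 change of -4.00 ± 0.12 (limma adjusted p = 1.9e-10). TIP2;3, of the vacuole membrane, fell by 4.08 from a low level. Of 31 tubulins, actins and actin partners 25 fell and 3 rose, with a median of -0.88, TUB1 at -2.42 and TUA4 at -2.01, while ACT11 rose by 2.32 ± 0.11. Of 28 kinesins 22 fell and 4 rose. The summed root markers stood at 13787 to 16916 in mock and 4532 to 4646 in CHX, and their part in the falls of TUB1 and TIP2;3 was not tested.

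Cell wall enzymes split within families. Of 23 tested expansins of 28 listed 7 rose and 13 fell, with a median log2 change of -1.14. EXPA12 held 24.4, 25 and 25.5 normalised read counts in mock and 5327, 6510 and 5869 in CHX, whereas EXPA17 held 1328, 738 and 1038 against 53.4, 48.8 and 146, a log2 change of -3.78 ± 0.38 (limma adjusted p = 3.0e-06). Of 30 tested xyloglucan endotransglucosylases, which cut and rejoin wall polymers, 16 rose and 10 fell with a median of 0.57, or -0.18 by total reads. XTR6 held 1351, 839 and 1296 in mock and 147586, 204689 and 193792 in CHX, a log2 rise of 7.31 ± 0.24, and XTH12 fell by 4.49 ± 0.37. The list took 0.19% to 0.207% of mock reads and 0.931% to 1.08% of CHX reads.

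Of 41 tested extensins, proline-rich and arabinogalactan proteins 14 rose and 24 fell, with AGP5 at 6.14 and PRP3 at -5.28. PRP3 is also among the root markers, and their part in its fall was not tested. Of 17 tested cellulose synthases and partners 8 rose and 7 fell. Of 34 tested cuticle, wax and suberin genes 23 fell and 8 rose, with a median of -0.93, the largest fall in CER4, a fatty alcohol-forming reductase, at -4.74 and the largest rise in FAR5, of the same enzyme class, at 4.04.

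Nitrate, sulphate, phosphate and sugar genes showed no common direction, while iron and zinc genes were more often lower than higher. Of 30 tested nitrate, sulphate and phosphate genes 13 rose and 10 fell with a median of 0.37, or -0.38 by total reads. NRT1.5, which loads nitrate into the xylem, held 5048, 5374 and 3509 normalised read counts in mock and 147, 63.1 and 118 in CHX, a log2 change of -5.45 ± 0.32 (limma adjusted p = 4.0e-08). SPX3, a phosphate starvation gene, rose by 5.05 ± 0.32, and with no mock library at 10 it had to be higher. Of 30 tested iron and zinc genes 15 fell and 4 rose, with a median of -0.22, and by total reads 19 fell and 2 rose. In that list bHLH38, a regulator of iron uptake, was at -3.54. Of 40 sugar genes 17 rose and 14 fell with a median of 0.27, or -0.49 by total reads, with MSS1, a hexose transporter, at 3.27 and SWEET12, a sucrose exporter, at -3.32.

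Histone transcripts were mostly higher. Of 18 core histones and variants named by symbol 12 rose and 5 fell, with a median log2 change of 1.06, and by total reads 11 rose and 6 fell. HIS4, a histone H4, held 2231, 2027 and 2261 normalised read counts in mock and 6825, 7803 and 6697 in CHX, a log2 rise of 1.71 ± 0.10 (limma adjusted p = 3.0e-08). HTR11, a histone H3, rose by 2.27. HTA9 and HTA11, which encode the H2A.Z variant, were at -1.44 and -1.94. By product description 35 of 47 tested histone genes rose and 7 fell, and by total reads 28 rose and 13 fell. Of 24 Polycomb and trithorax genes 9 rose and 11 fell, and MEA, a Polycomb subunit known from the endosperm, rose by 3.14.

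Gene structure and transcript class also differed in their counts. Of 3486 tested genes with 1 exon 1742 rose and 1111 fell, and 678 (19.4%) rose by 8-fold or more. Their share of reads went from 7.71% to 8.29% in mock to 16.1% to 16.4% in CHX. Of 3388 genes with more than 10 exons 1317 rose and 1238 fell, 123 (3.63%) by 8-fold or more, and their share went from 21.3% to 22.0% to 16.9% to 17.3%. Of 103 tested small nucleolar RNA genes 89 fell and 4 rose, with a median of -1.72, in libraries selected for poly(A). Of 214 transcribed pseudogenes 123 rose and 38 fell. The share of higher genes was 39.8% to 42.3% on the 5 nuclear chromosomes.

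Genes in common use as references for qPCR were mostly not steady. Of 21 such genes 12 fell and 5 rose, with a median log2 change of -0.65, and 9 changed by 2-fold or more. PP2AA3, a phosphatase subunit, held 4669, 4842 and 4599 normalised read counts in mock and 4472, 4760 and 4512 in CHX, a log2 change of -0.04 with a 95% interval of -0.15 to 0.08. AT2G28390, a SAND family gene, was at 0.04 (-0.07 to 0.15) and AT4G34270, a TIP41-like gene, at -0.12 (-0.23 to -0.00). Those were the 3 whose interval lay within 0.25 of 0 in these units, which are relative to the median gene. TUB6 was at -1.84, ACT8 at -1.67, ACT2 at -0.43 and GAPC2 at -1.22, whereas GAPC1 rose by 1.17 and UBQ10 by 0.46, the last at -0.29 by total reads. The narrowest intervals around 0 among well covered genes were those of AT2G48160, a Tudor domain protein, AT3G07180, a GPI transamidase part, CIP111, an AAA protein, CSN6A, a COP9 signalosome subunit, and AT4G08035, a non-coding RNA, all between -0.01 and 0.00.

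**Figure D5:**
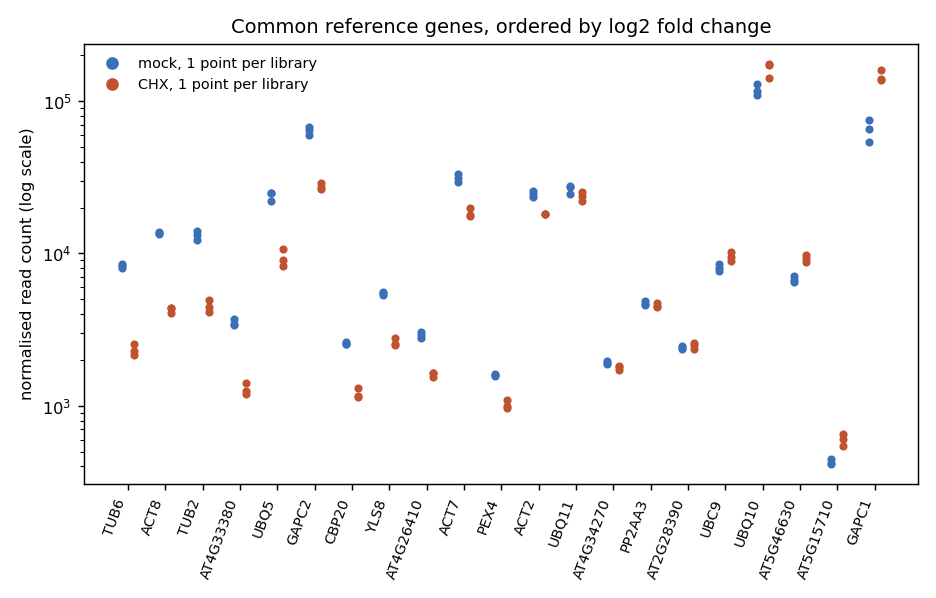
Normalised read count (vertical axis, log scale) of the 21 reference genes in each mock and CHX library, 1 point a library, ordered by log2 change from left to right. TUB6 at the left fell most, at -1.84, GAPC1 at the right rose most, at 1.17, and the points of PP2AA3 and AT2G28390 overlap between the groups.

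Of the genes mutated in this background, CLV3, EPFL1 and EPFL2 passed the filter, and EPFL4 and EPFL6 did not. CLV3 held 618, 791 and 640 normalised read counts in mock and 4792, 4847 and 4486 in CHX, a log2 rise of 2.79 ± 0.11. AT5G10310, which is EPFL1, was at 77.3, 109 and 69.3 against 262, 137 and 240. AT4G37810, which is EPFL2, was at 3114, 2254 and 3586 against 15311, 15911 and 19022. The labels do not say what each allele removes, so these counts check no label.

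The same contrast could be read in the 6 libraries with EPFL6, which share none with mock or CHX alone, although the 12 share 1 fit. There 9217 genes were higher and 8668 lower. Of the 9361 higher without EPFL6, 8445 were also higher with it, which is 90.2% of the list without and 91.6% of the list with the peptide. For lower genes 7767 were shared, 88.0% and 89.6%. At 8-fold or more 2001 rises were shared, 83.6% of 2394 and 96.6% of 2072, and 330 falls, 89.4% of 369 and 61.3% of 538. Calls in opposite directions numbered 61. The difference between the contrasts passed the test in 351 genes (1.53%; limma interaction), 86 with a higher and 265 with a lower change in the presence of EPFL6. That number depended on the setting: it was 192 with the replicate block, 1536 with DESeq2, 86 without mock replicate 1 and 1005 without CHX replicate 1. Of the 9 shoot meristem markers 8 were among the 351.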

How the data were processed

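The deposited table gives, per gene and library, a signal value. Values multiplied by 1 size factor per library came out whole in 100% of cases within 1e-06, so the authors' values are read counts over median-of-ratios size factors. Poly(A) RNA was sequenced, per the labels' protocols, and STAR 2.7.6a, featureCounts 2.0.0, DESeq2 1.26.0 and TAIR10 are named in the submitters' processing notes. The strand setting is not given in the sources used here. Sample columns left unused numbered 0.

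Log2(value + 1) was fitted with limma 3.58.1 (R 4.3.3; trend and robust moderation) to all 12 libraries with 4 group means. The contrast was CHX minus mock, two-sided, with Benjamini-Hochberg adjustment over 22869 genes and a threshold of 0.05; 2 groups of 3 cannot go below an exact permutation p of 0.10, so single genes rest on the fit. On simulated counts over 21607 genes the fit recovered 50%, 80%, 90% and 98% of 1.5-, 2-, 4- and 8-fold changes with 10 false calls. In that simulation 50 genes were changed per fold and all others kept at their mock mean, whereas 79.5% of genes were called here. Its recovery and false calls therefore do not describe this comparison. Within-group correlations of log2 values were 0.985 to 0.991. Members and gene lists were chosen with earlier results of these data known, so lists are described by counts and medians with no test. Named genes were drawn from, among those past the threshold, without overlap between the groups and at a mean CPM of recovered reads of at least 1, the 8 largest changes a direction, the 10 most abundant a group and the 2 largest changes a direction in each list, with 5 steady genes, the reference genes and the mutated genes. RCA was named for its abundance although its groups overlap, and other genes outside that rule were named after their values were seen. Alternatives changed the libraries fitted, a replicate block, pseudocount, filter, scaling, depth and test (edgeR 4.0.16 and DESeq2 1.42.0 on recovered counts).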

Additional observations from a re-analysis of the deposited data

Results flagged for a closer look

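The cycloheximide change of 3 named genes differed between libraries without and with EPFL6 by the limma interaction test. CLV3 rose by 2.79 without EPFL6 and by 1.46 with it on the log2 scale, a difference of -1.33 ± 0.16 (SE, adjusted p = 0.0031). EXPA12 rose by 7.82 without and by 5.36 with EPFL6, a difference of -2.47 ± 0.25 (adjusted p = 0.0013). XTH25, a xyloglucan endotransglucosylase, rose by 7.52 without and by 5.74 with EPFL6, a difference of -1.78 ± 0.38 (adjusted p = 0.049). Each gene rose in both settings.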

How the results depend on the processing

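The counts of higher and lower genes stayed within 1.5 times of 9361 and 8824 under every alternative run except scaling by total reads, which gave 5530 higher and 14343 lower. Leaving out single libraries gave 8995 to 9235 higher and 8382 to 8613 lower. Under scaling by total reads the log2 change turned negative for NIA2 (-0.071), AT2G28390 (-0.71), ADF6 (-0.36), AT2G48160 (-0.75), UBQ10 (-0.29), UBC9 (-0.51), RPN1B (-0.48), AT5G15710 (-0.26), NCBP (-0.19), AT5G46630 (-0.29), ERF1-1 (-0.20) and RPN5B (-0.18). The 351 genes with a different cycloheximide change under EPFL6 became 212 by total reads and 1536 with DESeq2. Without 1 library the number ran from 86 to 1005, with 86, 158 and 175 without mock replicates 1, 2 and 3 and 1005, 153 and 137 without CHX replicates 1, 2 and 3; the cause was not tested. Whether the replicate numbers pair the samples was not settled. Same-numbered mock and CHX libraries had deviations correlated at -0.06, 0.25 and 0.22, and mock and EPFL6 libraries at -0.13, 0.29 and 0.43. For CHX and CHX with EPFL6 the values were 0.17, 0.09 and -0.19. Libraries of different numbers were not compared. With the replicate block 9343 genes were higher, 8876 lower and 192 differed with EPFL6. Depth limits genes of a few reads, whose changes depend on the pseudocount.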
